A study of Arabidopsis thaliana with 17 samples.

Results

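The transcripts of the mitochondrial genome were the 138 entries of the authors' deposited table, of 33201 entries in all, that carry a single identifier of the ATMG series, which Arabidopsis uses for genes of the mitochondrial chromosome. They were followed across 6 groups of Arabidopsis thaliana root cells that all carried pSCR:SCR-mCherry, a red fluorescent fusion of the root regulator SCARECROW under its own promoter, the isolated control cells included. The groups were cells isolated at day 0 from differentiated or from meristematic root tissue (3 libraries of each tissue), which served as controls, and constructs made by bioprinting such cells: meristematic constructs at day 0 (3 libraries) and differentiated constructs at day 0 (3 libraries), day 1 (3 libraries) and day 3 (2 libraries). Bioprinting suspends living cells in a soft material that a machine lays down in a set shape. RNA was extracted with TRIzol, enriched by its poly(A) tails, turned into libraries that keep the strand and read as pairs of 150 bases. The labels do not tie libraries to plants, and each group is a mixture of root cell types, in which fewer cells of a type and less RNA per cell cannot be told apart.

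Plant mitochondria keep a genome of their own, which encodes part of the respiratory chain (complexes I, III and IV), part of ATP synthase (complex V), factors that mature cytochrome c, some ribosomal proteins, ribosomal and transfer RNAs, and many open reading frames of unknown function. All other subunits of these machines come from nuclear genes, as do the phage-type RNA polymerases that transcribe the organelle's genome. In plant mitochondria a poly(A) tail marks an RNA for decay by polynucleotide phosphorylase, in contrast to cytosolic mRNA, so poly(A)-selected libraries sample these transcripts incompletely. How much of each mitochondrial RNA carried a tail in each group was not measured here, and its part in any result was not tested.

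Names could be given to a minority of the members. The TAIR10.1 reference does not pair ATMG identifiers with its mitochondrial genes, but notes on chromosome 2 genes describe 50 of the 138 members as the best match of a nuclear copy. Chromosome 2 of Arabidopsis holds a large insertion of mitochondrial DNA. The best aligned segment of all 55 noted loci matched the mitochondrial genome at an identity of 99.03% or more (median 100%). That segment did not always span the locus: it covered 15.4% of the sequence taken from AT2G07706 and 64.7% of that from AT2G07698. The other 88 members are given by identifier alone and were not searched for nuclear copies, so some of them may have copies too. The copies bear on the values of the named members, because reads of 150 bases cannot be assigned where both copies read the same. How the authors placed such reads was not given in the sources used here. A stretch of 150 bases is shown for each of 3 named members beside its nuclear copy, 5′ to 3′, from TAIR10.1, with capitals only where the copies differ. ATMG01190, noted as ATP synthase subunit 1, lies at chrMT:68457-68606 (minus strand) in the gene atp1, and its copy in AT2G07698 lies at chr2:3362520-3362669 (plus strand). ATMG01080, noted as subunit 9 of the membrane part of ATP synthase, lies at chrMT:271069-271218 (minus strand), a stretch that begins upstream of the annotated gene atp9 (chrMT:270961-271185) and runs into it, and its copy in AT2G07671 lies at chr2:3251964-3252113 (minus strand). ATMG01090, noted as resembling ATP synthase subunit 9, lies at chrMT:270317-270466 (minus strand) outside the annotated genes, and its copy in AT2G07777 lies at chr2:3251212-3251361 (minus strand).
ATMG01190: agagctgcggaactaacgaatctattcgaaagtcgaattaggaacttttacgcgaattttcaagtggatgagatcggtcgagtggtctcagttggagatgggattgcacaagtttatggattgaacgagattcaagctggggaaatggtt
AT2G07698: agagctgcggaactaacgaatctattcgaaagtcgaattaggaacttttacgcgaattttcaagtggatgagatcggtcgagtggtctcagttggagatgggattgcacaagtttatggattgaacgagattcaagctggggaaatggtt
ATMG01080: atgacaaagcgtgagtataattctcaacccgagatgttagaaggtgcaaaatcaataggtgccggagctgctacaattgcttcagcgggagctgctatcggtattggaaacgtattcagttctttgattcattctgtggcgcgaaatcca
AT2G07671: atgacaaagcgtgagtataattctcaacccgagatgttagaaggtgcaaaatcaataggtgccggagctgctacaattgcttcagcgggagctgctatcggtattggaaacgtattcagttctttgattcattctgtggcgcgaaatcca
ATMG01090: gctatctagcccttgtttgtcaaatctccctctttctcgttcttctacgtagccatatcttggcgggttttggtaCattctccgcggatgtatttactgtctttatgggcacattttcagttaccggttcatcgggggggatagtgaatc
AT2G07777: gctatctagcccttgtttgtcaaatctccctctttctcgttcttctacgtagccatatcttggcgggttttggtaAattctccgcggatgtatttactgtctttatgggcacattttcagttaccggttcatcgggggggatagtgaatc
The stretches of the first and the second pair hold 0 differences, and the stretch of the third pair holds 1.

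Levels are given as FPKM, fragments scaled to transcript length and to the number of mapped fragments, with 1 value per group that the authors pooled over its libraries, so no error can be attached to a gene's level. Of the 138 members, 46 were listed at 0 in all 6 groups, 31 stayed above 0 but below an FPKM of 1, and 61 reached 1 in at least 1 group. An FPKM of 10 was reached by 23 members and of 100 by 7, and 15 members were at 1 or more in every group. Members with a noted nuclear copy were low: 17 of 50 reached an FPKM of 1 and 2 of 50 reached 10, against 44 and 21 of the 88 others. This split is not one of function. The 50 include members noted as unknown proteins or through pseudogene copies, and genes of known function may be among the 88. All counts and medians over the 61 members that reached 1 share a limit, since a member that passed only through the group where it was high had to differ between groups.

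The members together held 0.257% of summed FPKM in differentiated cells, 0.374% in meristematic cells, 1.20% in meristematic constructs, and 1.32%, 0.905% and 1.62% in differentiated constructs at days 0, 1 and 3. Both groups of isolated cells were thus below every group of constructs. Most of this signal came from ATMG00020, ATMG00030, ATMG01380 and ATMG01390, which made up between 92.1% and 96.8% of it. The summed shares therefore describe mainly these 4 members. The reference lists 3 ribosomal RNA genes without ATMG identifiers, and whether any of the 4 members is a ribosomal RNA was not determined here. The other 134 members summed to 117 FPKM in differentiated cells and 154 in meristematic cells. In constructs they summed to 379 in meristematic tissue and to 752, 581 and 538 at days 0, 1 and 3 of differentiated tissue. The order of the construct groups at day 0 depended on which members were summed: the share was 0.850% in meristematic and 0.815% in differentiated constructs without the highest member of each group, and 0.612% and 0.550% without ATMG00020 and ATMG01390. Both groups of isolated cells at day 0 stayed below both groups of constructs at day 0 in these sums. The median FPKM of the 61 members was 0.298 in differentiated cells, 0.636 in meristematic cells, 2.11 in meristematic constructs, and 3.26, 2.46 and 3.59 in differentiated constructs at days 0, 1 and 3. The chloroplast genome's entries held 0.0438%, 0.0421%, 0.116%, 0.0676%, 0.0290% and 0.473% of summed FPKM in the same order of groups. Here too both groups of isolated cells were below both groups of constructs at day 0, but the full order differed from that of the mitochondrial entries.

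The abundant members differed among themselves. ATMG00030 stood at an FPKM of 673 in differentiated cells, 1613 in meristematic cells, 2154 in meristematic constructs, and 1741, 2193 and 1828 in differentiated constructs at days 0, 1 and 3. ATMG01380 stood at 334, 769, 3450, 2607, 4595 and 3561 in the same order. Both were lowest in differentiated cells, with meristematic cells next and all constructs above. ATMG01390 stood at 722, 2078, 2982 and 4656 in the day 0 groups in that order, was listed at 0 at day 1, and stood at 4394 at day 3. ATMG00020 was listed at 0 in meristematic cells and at day 1, and stood at 705, 2799, 2462 and 1697 in differentiated cells, meristematic constructs, and differentiated constructs at days 0 and 3. A value of exactly 0 beside such high values can be a failed estimate, so the lower pooled share at day 1 rests on these listings: without ATMG00020 and ATMG01390 the share was 0.550%, 0.905% and 0.799% at days 0, 1 and 3. ATMG00330 and ATMG00780 carried the same 6 values, which were 27.6 FPKM in differentiated cells, 26.0 in meristematic constructs, 102 in differentiated constructs at day 1 and 0 in the other groups.

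**Figure D1:**
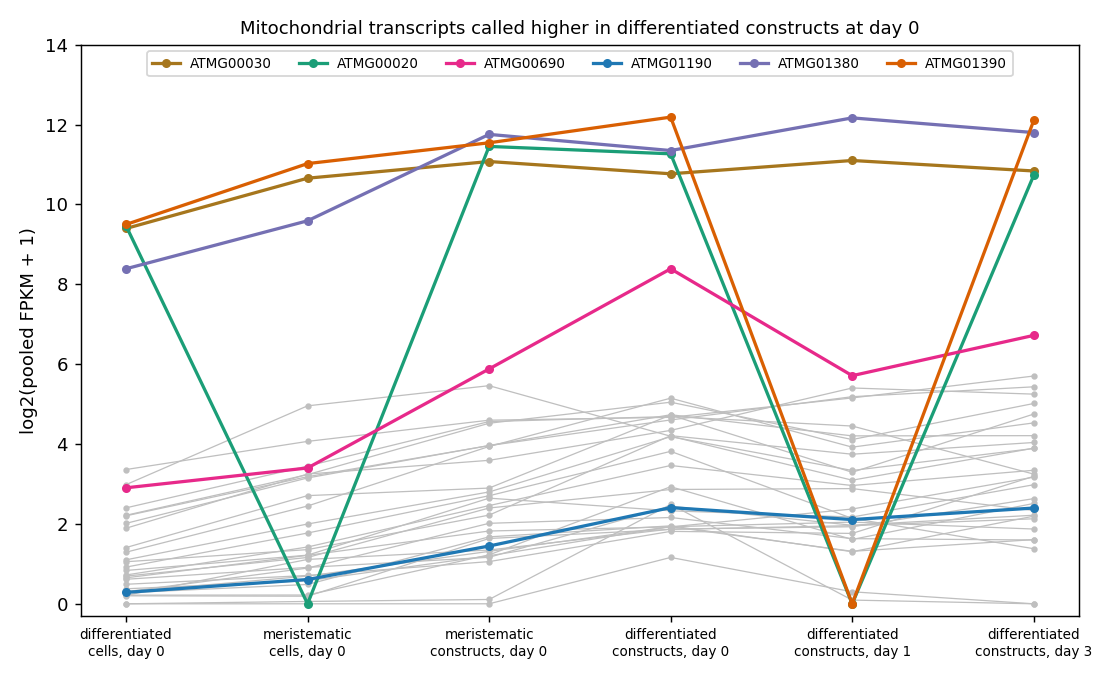
The pooled FPKM of the 33 mitochondrial members called higher in differentiated constructs than in differentiated cells at day 0, on a log2(FPKM + 1) axis, across the 6 groups. Each line is 1 member, and coloured lines mark the 4 abundant members with ATMG00690 and ATMG01190. The members were chosen for being higher in differentiated constructs than in differentiated cells at day 0, so the rise between these groups is part of the choice, and the drops of ATMG00020 and ATMG01390 to the bottom are listings at 0.

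The comparison of constructs with isolated cells asked how printing and its handling bear on these transcripts. In differentiated tissue, 33 of 52 tested members were called higher in constructs at day 0 and 0 were called lower, by the authors' deposited table. A call means a q-value under 0.05 there and an FPKM of at least 1 in 1 or both groups. Of all genes tested in that comparison, 12.5% were called in either direction, with 5.08% called higher and 7.38% lower. The members' median log2 ratio was 3.48, beside -0.12 over all genes tested. In every comparison, a member that was tested through 1 group alone had to differ between the groups, which sets part of the members' median. Here this bears more on the members than on all genes: 17 of the 52 members, but 16137 of 17654 genes, were at 1 or more in both groups. Of the chloroplast genome's entries, 4 of 32 tested were called higher and 0 lower, at a median log2 ratio of 0.54. Of the 17 members at an FPKM of 1 or more in both groups, 16 were called higher, and the median log2 ratio of the 17 was 2.83. Over the 16137 genes at that level in both groups the median was -0.12, and the share of them called is not given here. Of the 61 members, 59 had the higher FPKM in constructs, a count that is partly set by the choice of the 61.

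ATMG00690 rose most among called members with a ratio. Its FPKM was 6.49 in differentiated cells, 9.56 in meristematic cells, 57.9 in meristematic constructs, and 334, 51.4 and 104 in differentiated constructs at days 0, 1 and 3. The log2 ratio of printing in differentiated tissue was 5.69 (q = 0.000551, the smallest q that the authors' deposited table holds). ATMG00040 followed at a log2 ratio of 5.35 (q = 0.00566 per the authors' deposited table), from an FPKM of 0.162 to 6.63. ATMG01130 rose from 1.45 to 34.5 FPKM, a log2 ratio of 4.57 per the authors' deposited table (q = 0.00509). The smallest called ratios belonged to members with an FPKM above 5 in differentiated cells. Per the authors' deposited table these were 1.33 for ATMG00140 (q = 0.0406), 1.37 for ATMG00030 (q = 0.00144) and 1.40 for ATMG00160 (q = 0.00479). ATMG00720 and ATMG01250 were called while listed at 0 in differentiated cells, at an FPKM of 1.24 and 4.61 in constructs.

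Among members with a note, the complex V gene ATMG01190 (the catalytic part's alpha subunit) had an FPKM of 0.219 in differentiated cells, 0.524 in meristematic cells, 1.73 in meristematic constructs, and 4.31, 3.31 and 4.27 in differentiated constructs at days 0, 1 and 3. Its log2 ratio of printing in differentiated tissue was 4.30 per the authors' deposited table (q = 0.000551). ATMG01080, the subunit that forms the rotating ring of complex V, went from 5.79 to 13.2 FPKM and was not called, at a log2 ratio of 1.19 per the authors' deposited table. ATMG00480, another subunit of its membrane part, went from 0.229 to 1.07 FPKM and was not called either. Of the cytochrome c maturation genes, ATMG00960 rose from 0.211 to 2.87 FPKM, a log2 ratio of 3.77 per the authors' deposited table (q = 0.0494). ATMG00180 and ATMG00900 of the same group stayed under an FPKM of 1 in all groups. Of the ribosomal proteins, ATMG00560, whose copy aligned to rpl2, rose from 0.158 to 2.66 FPKM with a log2 ratio of 4.08 (q = 0.022 per the authors' deposited table). ATMG00980, noted as a ribosomal protein of the S12 family, went from 0.476 to 3.89 FPKM and was not called. The reading frames ATMG01280, like cytochrome oxidase subunit II, and ATMG01090, like ATP synthase subunit 9, were called at log2 ratios of 3.62 (q = 0.0167) and 2.36 (q = 0.0206) per the authors' deposited table.

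None of the noted members of complexes I, III and IV reached an FPKM of 1 in either group of this comparison, so none counts among the 52. The notes placed only 2 members in complex I, 1 in complex III and 1 in complex IV. The reference lists further genes of complexes I and IV, such as nad9 and cox1, without ATMG identifiers. These genes may be among the members given by identifier alone, so the tested and called members may include genes of these complexes. The complex I genes ATMG01275 and ATMG01320 were at 0.242 and 0.246 FPKM in differentiated constructs at day 0. The complex IV gene ATMG00730, cytochrome c oxidase subunit 3, was at 0.395 FPKM there, and its log2 ratio of printing was 1.78 (q = 0.177) per the authors' deposited table. The complex III gene ATMG00220, apocytochrome b, was at 0.0288 FPKM, whereas its nuclear copy AT2G07727 was at 2.87.

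The nuclear copies were tested in the same comparison. Of 18 tested copies 7 were called higher in differentiated constructs at day 0 and 0 lower, at a median log2 ratio of 2.51, where 5.08% of all genes tested were called higher and the median over all genes was -0.12. AT2G07698, the copy of ATMG01190, stood at an FPKM of 2.21 in differentiated cells, 4.68 in meristematic cells, 12.4 in meristematic constructs, and 25.4, 21.9 and 27.6 in differentiated constructs at days 0, 1 and 3. It was above the mitochondrial entry in every group, at a log2 ratio of printing of 3.52 per the authors' deposited table (q = 0.000551). AT2G07671, the copy of ATMG01080, went from 4.58 to 14.1 FPKM (log2 ratio 1.62, q = 0.0269 per the authors' deposited table). AT2G07725, the copy of ribosomal protein L5, went from 0.488 to 3.92 FPKM, at a log2 ratio of 3.00 per the authors' deposited table (q = 0.0117), while its mitochondrial counterpart ATMG00210 was listed at 0 in all groups. Whether reads at a pair came from the nucleus or the mitochondrion cannot be told apart in these values.

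**Figure D2:**
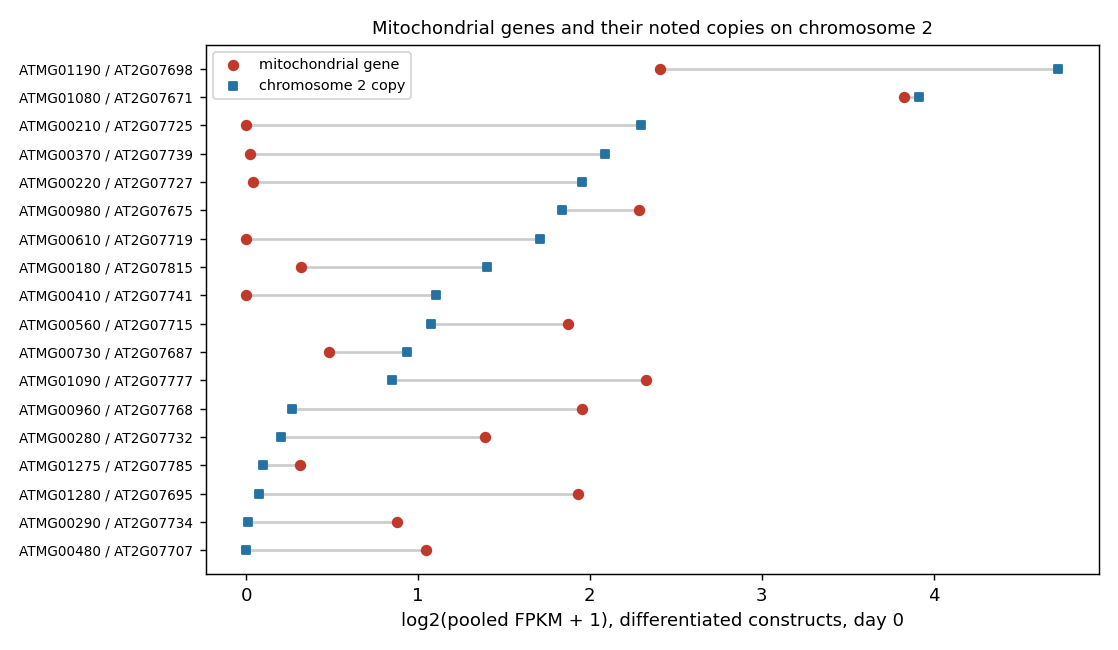
Pooled FPKM in differentiated constructs at day 0 of mitochondrial members (circles) and their noted copies on chromosome 2 (squares), on a log2(FPKM + 1) axis, with 1 line per pair. The signal lies on the copy for pairs such as ATMG01190 with AT2G07698 and ATMG00210 with AT2G07725, and on the mitochondrial entry for others such as ATMG01280 with AT2G07695.

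In meristematic tissue, 7 of 41 tested members were called higher in constructs than in cells at day 0 and 0 lower per the authors' deposited table. Of all genes tested, 10.4% were called in either direction, 1.86% higher and 8.52% lower. The members' median log2 ratio was 1.25, beside -0.14 over all genes. Of the chloroplast genome's entries, 6 of 40 tested were called higher and 0 lower, at a median log2 ratio of 0.46. Of 26 members at an FPKM of 1 or more in both groups, 5 were called, and the median log2 ratio of the 26 was 1.09. Over the 16302 genes at that level in both groups the median was -0.13, and the share of them called is not given here. The called members were ATMG00690, at a log2 ratio of 2.60 per the authors' deposited table (q = 0.000551), and ATMG01380, ATMG01090, ATMG00520, ATMG00670, ATMG01190 and ATMG00660. The latter had log2 ratios of 2.16, 1.99, 1.82, 1.79, 1.72 and 1.38 per the authors' deposited table, with q-values of 0.00355, 0.0233, 0.0126, 0.0344, 0.0417 and 0.0246. All 7 were also called higher in differentiated constructs. Whether printing differed in its effect between the tissues was not tested, since the pooled values carry no error for a gene.

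The tissues were compared directly, as meristematic over differentiated. In isolated cells, 4 of 30 tested members were called higher in meristematic tissue and 0 lower per the authors' deposited table, where 7.75% of all genes were called, 4.63% higher and 3.12% lower. The median log2 ratio of members was 1.37, beside 0.12 over all genes. The 4 members were ATMG00140 at a log2 ratio of 2.12 (q = 0.00144), ATMG00640 at 1.65 (q = 0.0341), ATMG00030 at 1.26 (q = 0.00418) and ATMG01360 at 1.16 (q = 0.0173) per the authors' deposited table. In constructs at day 0, 8 of 52 tested members were called lower in meristematic tissue and 1 higher, with 9.38% of all genes called, 4.61% lower and 4.77% higher, and a median log2 ratio of -0.70 beside 0.02. The lower members with a ratio were ATMG00690 at -2.53 (q = 0.000551), ATMG01370 at -2.26 (q = 0.0437), ATMG00060 at -1.98 (q = 0.00678), ATMG00510 at -1.84 (q = 0.0204) and ATMG01190 at -1.32 (q = 0.046) per the authors' deposited table. The other lower members, ATMG00710, ATMG00720 and ATMG01400, were listed at 0 in meristematic constructs. ATMG00140 was the member called higher, at a log2 ratio of 1.31 per the authors' deposited table (q = 0.00538). Its FPKM was 6.91 in differentiated cells, 30.0 in meristematic cells, 43.1 in meristematic constructs, and 17.3, 7.54 and 13.9 in differentiated constructs at days 0, 1 and 3. Of the 61 members, 51 were lowest in differentiated cells among the day 0 groups, 51 were highest in differentiated constructs, and 40 rose in the order differentiated cells, meristematic cells, meristematic constructs, differentiated constructs. The choice of the 61 sets part of this order: 19 members were at 1 or more in differentiated cells, and 50 in differentiated constructs at day 0. These comparisons share groups with the printing comparisons, so their calls are not independent.

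**Figure D3:**
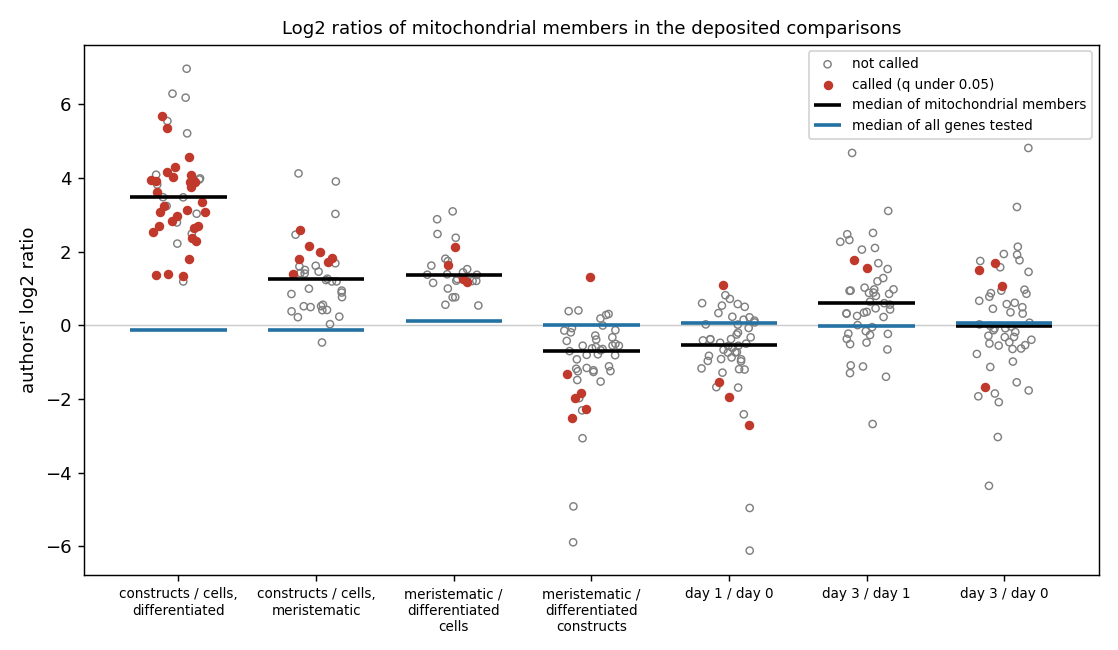
The log2 ratios of the mitochondrial members in the 7 comparisons of the authors' deposited table, with called members filled. Black bars are the members' medians and blue bars those of all genes tested: the members' bar is 3.48 in the printing comparison of differentiated tissue and -0.01 between days 3 and 0, and members listed at 0 in 1 group have no ratio to plot. Members at an FPKM of 1 or more in only 1 group had to differ between groups, which sets part of the members' bars.

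The days in culture were compared next. Between day 0 and day 1 of differentiated constructs, 1 of 54 members was called higher and 3 lower per the authors' deposited table, where 32.6% of all genes were called, 16.2% higher and 16.4% lower. The members' median log2 ratio was -0.53, beside 0.06 over all genes. ATMG00690 fell by 2.70 on the log2 scale (q = 0.000551), ATMG00130 by 1.95 (q = 0.0494) and ATMG00060 by 1.53 (q = 0.0117) per the authors' deposited table. ATMG00640 rose from 19.3 to 41.3 FPKM, a log2 ratio of 1.10 per the authors' deposited table (q = 0.0173). Between day 1 and day 3, 2 of 57 members were called higher and 3 lower, where 14.4% of all genes were called, 5.88% higher and 8.48% lower, and the median log2 ratio was 0.60, beside -0.03. The 2 higher members were ATMG00513 at a log2 ratio of 1.77 (q = 0.00418) and ATMG00060 at 1.56 (q = 0.0214) per the authors' deposited table. ATMG01400, ATMG00280 and ATMG00970 were called lower while listed at 0 at day 3.

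Between day 0 and day 3, 3 of 58 members were called higher and 6 lower per the authors' deposited table, where 42.2% of all genes were called, 21.0% higher and 21.2% lower. The median log2 ratio of members was -0.01, beside 0.05 over all genes. ATMG00513 went from 2.51 to 8.14 FPKM, ATMG01170 from 2.80 to 8.0 and ATMG00160 from 24.4 to 51.1. Their log2 ratios were 1.69 (q = 0.0208), 1.52 (q = 0.0193) and 1.06 (q = 0.035) per the authors' deposited table. ATMG00690 was lower at day 3, with a log2 ratio of -1.68 per the authors' deposited table (q = 0.0227), and the other 5 lower members, ATMG00280, ATMG00720, ATMG00970, ATMG01250 and ATMG01400, were listed at 0 at day 3. The 9 tested members noted with a known function had a median log2 ratio of 0.67 between days 0 and 3, with 0 called. This set holds only members with a note. The 3 members called higher have no note and were not sorted by function, so they may include genes of known function. The complex I gene ATMG01275 went from 0.242 to 2.24 FPKM and the complex IV gene ATMG00730 from 0.395 to 1.49, neither of them called.

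Nuclear genes of the same machines were set beside them. Of 19 nuclear subunits of complexes I to V and cytochrome c, 0 were called in the printing comparison of differentiated tissue, 0 in that of meristematic tissue and 7 at day 3 against day 0, all 7 lower, at median log2 ratios of -0.24, -0.24 and -0.65, beside -0.12, -0.14 and 0.05 over all genes. Of all genes tested, 12.5%, 10.4% and 42.2% were called in these comparisons, and 21.2% were called lower at day 3 against day 0. The 7 of 19 at day 3 (36.8%) were thus above the share of all genes called lower and below the share called in either direction. All 19 had the lower FPKM at day 3, as did 9060 of the 18372 genes tested. Whether these subunits differed from other genes was not tested. At day 1 against day 0, 1 of them was called, the complex IV subunit AT3G15640, which was lower. AT3G27240, a cytochrome c1 of complex III, fell from an FPKM of 258 at day 0 to 92.7 at day 3, a log2 ratio of -1.48 per the authors' deposited table (q = 0.00102). CYTC-2 (AT4G10040), a cytochrome c, fell by 1.14 (q = 0.00782), CI51 (AT5G08530), the NADH-binding subunit of complex I, by 1.28 (q = 0.00808) and AT5G08670, an ATP synthase beta subunit, by 1.33 (q = 0.013) on the log2 scale per the authors' deposited table. AT5G08670 has 2 near-identical paralogs, so its value is uncertain. Of nuclear genes that act on mitochondrial RNA, 3 were followed. MGP3 (AT1G68990), a phage-type RNA polymerase of mitochondria, stood at an FPKM of 1.39 in differentiated cells, 0.954 in meristematic cells, 1.45 in meristematic constructs, and 2.21, 9.70 and 14.1 in differentiated constructs at days 0, 1 and 3. AT5G14580, a polynucleotide phosphorylase, stood at 1.01, 0.579, 0.821, 1.37, 5.69 and 10.2 in the same order. AT5G15700, a polymerase of the same phage type found in mitochondria and chloroplasts, stood at 2.11, 3.54, 3.85, 4.6, 9.38 and 13.6. All 3 were called higher at day 3 than at day 0, at log2 ratios of 2.67, 2.90 and 1.57 per the authors' deposited table (q = 0.000551 each), and all 3 at day 1. Of all genes tested, 21.0% were called higher at day 3 and 16.2% at day 1 against day 0. At day 0, AT5G15700 was the 1 of the 3 called higher in differentiated constructs than in cells, at a log2 ratio of 1.12 per the authors' deposited table (q = 0.0108). The members' median log2 ratio between days 0 and 3 was -0.01, and any link between these 3 genes and the members was not tested.

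**Figure D4:**
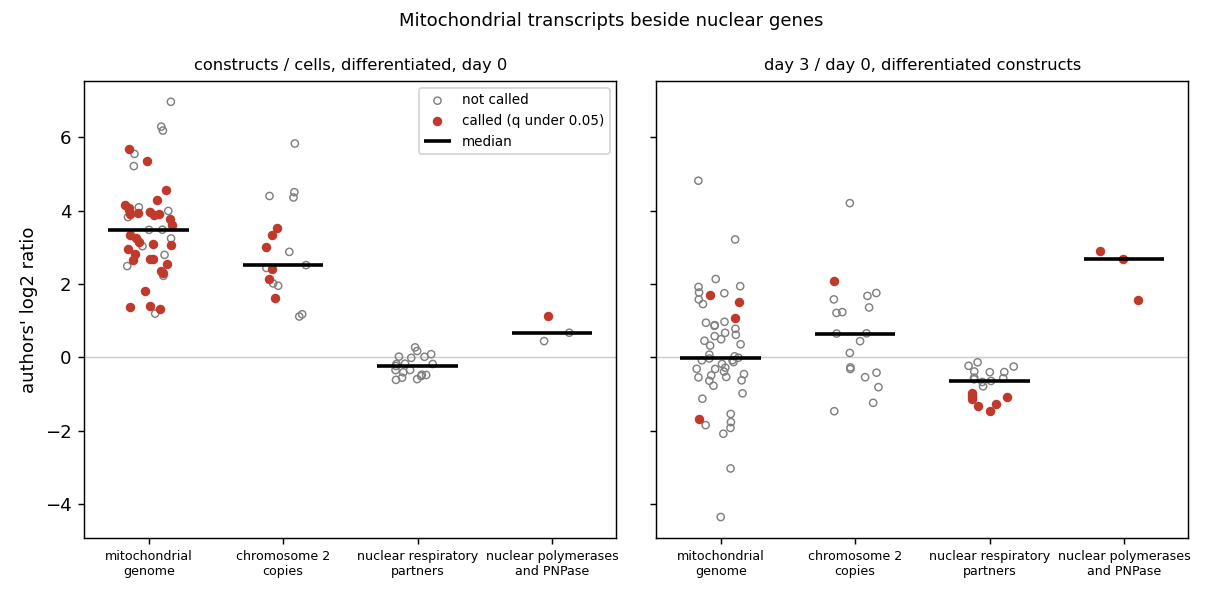
Log2 ratios from the authors' deposited table for mitochondrial members, their copies on chromosome 2, 19 nuclear respiratory subunits and 3 nuclear genes that act on mitochondrial RNA, for printing in differentiated tissue (left) and day 3 against day 0 (right). Bars are medians and filled points are called genes: the respiratory subunits lie near 0 on the left and 7 of 19 are called lower on the right, where all 3 genes of the last list are called higher and 42.2% of all genes tested were called, 21.0% higher and 21.2% lower.

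The library table gave a rough view of the replicates. Its columns do not keep 1 gene per line, so no gene can be followed in it, and the lines named for mitochondrial genes do not form 1 run. The summed share of all 279 lines named for mitochondrial or chloroplast genes was used instead. It is approximate, since a line may hold the value of a gene other than the one it is named for. Leaving out 10 lines at the start took it from 2.10% to 1.64% in the first differentiated construct library at day 0, but from 3.28% to 3.27% in the second at day 1. The share on all 279 lines was 0.310% ± 0.0599 (SD, n = 3) in differentiated cells, 0.545% ± 0.100 (SD, n = 3) in meristematic cells and 1.35% ± 0.710 (SD, n = 3) in meristematic constructs. Differentiated constructs had 1.35% ± 0.825 (SD, n = 3) at day 0, 2.10% ± 1.20 (SD, n = 3) at day 1 and 2.03% ± 1.26 (SD, n = 2) at day 3. Every construct library lay above every cell library of its own tissue at day 0, with differentiated cells at 0.357%, 0.242% and 0.331% against 2.10%, 1.48% and 0.470% in constructs. Meristematic cells lay at 0.592%, 0.430% and 0.613% against 2.15%, 0.813% and 1.08% in constructs. The spread among construct libraries was wide, and the third differentiated library at day 0, at 0.470%, was below 2 of the 3 meristematic cell libraries. Meristematic and differentiated constructs differed by less than the spread between replicates, as did the days. The share at day 1 was not below that at day 0 in these libraries, whereas the pooled share with ATMG00020 and ATMG01390 listed at 0 was.

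**Figure D5:**
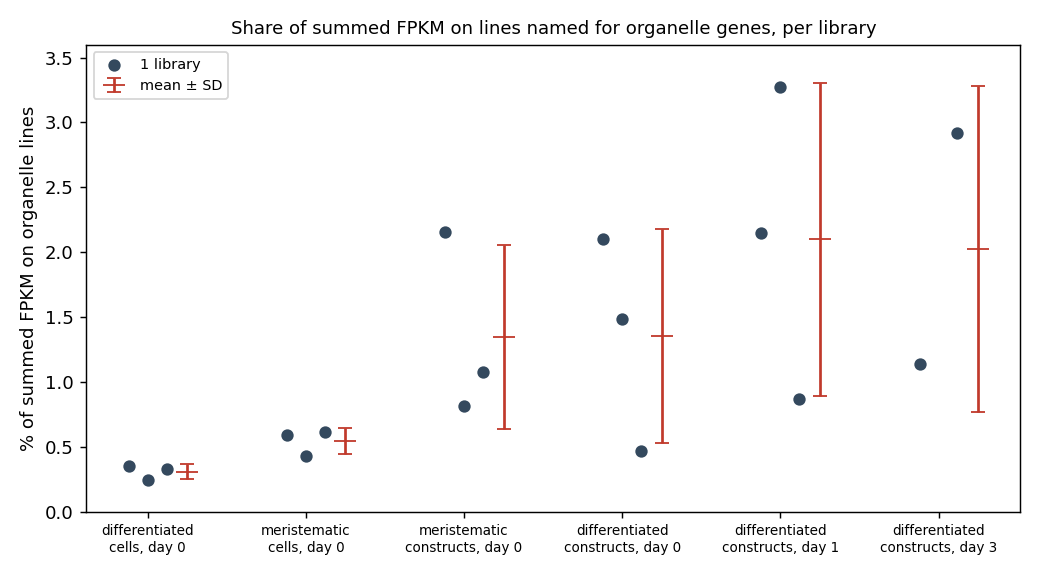
Share of summed FPKM on lines named for mitochondrial or chloroplast genes in each of the 17 libraries (points), with the mean ± SD of each group (red). Cell libraries lie between 0.242% and 0.613%, and construct libraries between 0.470% and 3.28%.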

How the data were processed

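RNA from 17 libraries in 6 groups was analysed; groups were taken from the sample labels. HISAT2 and Cufflinks are the tools that the submitters' processing notes list, with versions, genome build and use of strand not given in the sources used here. Values of overlapping or antisense genes are therefore uncertain. The authors deposited a table with 1 FPKM value per library and a table with 1 pooled FPKM per group, log2 ratios and q-values for 7 comparisons. A ratio of 65535 in the authors' deposited table, a score that stands for a group at 0, was treated as having no value. The ratio of constructs between tissues was turned in sign to meristematic over differentiated. Sequencing depth is unknown, as FPKM values keep none. p-values behind the q-values deposited by the authors were not given in the sources used here, and replicates enter only through them.

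Members and lists were chosen with earlier results of these data known. A gene was called at q under 0.05 and FPKM of at least 1 in 1 or both groups. The rule for named genes took members of known function, the 10 with the highest mean FPKM, per comparison the called members with up to 6 highest and 6 lowest ratios, noted nuclear copies, and nuclear genes with the smallest q. AT2G07725, ATMG00720 and ATMG01250 were named after their values were seen, as were other called members listed at 0, which have no ratio to rank. The planned share per library on mitochondrial lines alone was replaced by that on mitochondrial and chloroplast lines. Nuclear copies were aligned with blastn 2.17.0 to the mitochondrial genome of TAIR10.1, whose coordinates are printed; sequences come from that reference. The scripts, run in Python 3.11.15, were tested on simulated data.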

Additional observations from a re-analysis of the deposited data

Results flagged for a closer look

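Of 3 entries that join several mitochondrial identifiers, and that no comparison above uses, 2 had a signal in constructs above that in both groups of isolated cells. The entry that joins ATMG00080 and ATMG00090 stood at an FPKM of 9.16 in differentiated cells, 20.4 in meristematic cells, 51.1 in meristematic constructs, and 110.2, 56.2 and 90.1 in differentiated constructs at days 0, 1 and 3. Its log2 ratio of printing was 3.59 in differentiated tissue (q = 0.000551) and 1.33 in meristematic tissue (q = 0.00538) in the authors' deposited table. The entry that joins ATMG00990, ATMG01000 and ATMG01010 stood at 0.303, 1.5, 4.36, 2.93, 2.87 and 1.83 FPKM in the same order and was not called in any of the 7 comparisons.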

How the results depend on the processing

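A minimum FPKM of 5 also lowers the number of members tested. The numbers tested and the shares of all genes called under the changed settings are not given here, so a lower count is not a lower share. The number of members called was 33 for printing in differentiated tissue, and 20 with an FPKM of at least 5 and 20 at q under 0.01. For printing in meristematic tissue it went from 7 to 4 and 2 under the same settings. It went from 4 to 2 between isolated cells at q under 0.01 and from 9 to 4 between constructs with an FPKM of at least 5. It went from 4 to 1 for day 1 against day 0 at q under 0.01. For day 3 against day 1 it went from 5 to 2 with an FPKM of at least 5, 1 at q under 0.01 and 3 without members that have a noted nuclear copy. Members without a note were not searched for nuclear copies, so the last setting does not remove all members that may have one. For day 3 against day 0 it went from 9 to 4 and 2. The median log2 ratio of printing in differentiated tissue went from 3.48 to 1.74 on log2(FPKM + 1). That of day 3 against day 0 went from -0.01 to 0.67 in the members noted with a known function, a set without the members that have no note. Other settings kept 23 counts and 40 medians within 1.5-fold. Rescaling to TPM moved the median of all genes by over 0.1: it became 0.20 for printing in meristematic tissue, -0.19 between isolated cells, 0.24 for day 1 against day 0, 0.11 for day 3 against day 1 and 0.37 for day 3 against day 0, beside member medians of 1.58, 1.06, -0.34, 0.74 and 0.31. The pooled share of only the members noted with a known function was 0.000749%, 0.00143%, 0.00265%, 0.00324%, 0.00358% and 0.00598% of summed FPKM, in the order differentiated cells, meristematic cells, meristematic constructs, and differentiated constructs at days 0, 1 and 3. Without its highest member the share was 0.205% in meristematic cells and 0.815%, 0.341% and 1.03% at days 0, 1 and 3. Without ATMG00020 and ATMG01390, a setting chosen after seeing the data, it was 0.113%, 0.205%, 0.612%, 0.550% and 0.799% in the groups other than day 1. The causes were not tested.

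The difference in the organelle share per library, in percentage points, was 1.04 for printing in differentiated tissue (0.666 to 1.48 with 1 library left out), 0.803 in meristematic tissue (0.400 to 1.07), 0.235 between isolated cells (0.201 to 0.293) and -0.00361 between constructs (-0.445 to 0.372). It was 0.747 for day 1 against day 0 (0.159 to 1.36), -0.0715 for day 3 against day 1 (-0.959 to 0.816) and 0.676 for day 3 against day 0 (-0.212 to 1.56). With the block of lines widened by 10 at its start, the differences were 1.04, 0.788, 0.247, -0.00689, 0.742, -0.0548 and 0.687 in the same order. With the block narrowed by 10 they were 0.808, 0.810, 0.144, 0.146, 0.898, -0.0431 and 0.855. The replicate block left the differences of the groups with 3 libraries at 1.04, 0.803, 0.235, -0.00361 and 0.747, as it must where every number occurs in both groups, and gave -0.686 and 0.235 for the comparisons with day 3, where replicate 3 drops out. Whether the numbers pair samples could not be checked gene by gene, because genes cannot be followed across the library columns, and no block could be applied to single genes, since their values are pooled.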

Other observations

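Among members outside the respiratory and ribosomal groups, ATMG00280, noted as like the large chain of the plastid enzyme Rubisco, stood at an FPKM of 0.146 in differentiated cells, 0.278 in meristematic cells, 0.194 in meristematic constructs, 1.63 and 1.22 in differentiated constructs at days 0 and 1, and was listed at 0 at day 3. ATMG01220, noted as an unknown protein, stood at 0.437, 1.05, 2.87, 6.79, 6.89 and 12.5 in the same order of groups, and its q of 0.0522 for printing in differentiated tissue in the authors' deposited table missed the threshold. Both were chosen after their values were seen. Over the 61 members at an FPKM of 1 or more in any group, the highest of the 6 groups was differentiated constructs at day 0 for 27 members, day 3 for 22, day 1 for 9 and meristematic constructs for 3, and isolated cells for 0. The choice of the 61 sets part of this, as a member below 1 in isolated cells could pass only through constructs. In all, 37 members were called in at least 1 comparison, 8 in 3 or more, and ATMG00690 in 5 of 7. The matching counts over all genes are not given here, so these counts cannot be set against a background. In the comparison of day 3 with day 0 alone, 42.2% of all genes tested were called.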
